A study of Mus musculus with 4 samples.

Results

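The Ifitm genes encode small membrane proteins, several of them induced by interferon. They were followed here together with Bst2 in the adult mouse retina after loss of Nrl. The list held 7 genes, Ifitm1, Ifitm2, Ifitm3, Ifitm5, Ifitm6, Ifitm7 and Bst2, of 19421 genes measured, and all 7 were on the array, with 10 probe sets in all. Ifitm3 was chosen by its measured rise in the knockout, the same contrast that is described below, with a log2 difference of 1.90 at a limma adjusted p of 0.0366. The call ended without any 1 array (adjusted p from 0.0932 to 0.358) and with every probe set fitted (0.0515). Because the rise chose the gene, it is given as a description, with no test in its support. The other Ifitm genes are its paralogs, and Bst2, listed with them, is likewise described without a test.

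Retinal RNA was hybridised to 4 microarrays, 2 for each genotype. Knockout animals were Nrlflox/flox; CAG-CreERTM, with a floxed Nrl gene on both chromosomes. Controls were Nrlflox/+; CAG-CreERTM and thus kept 1 intact copy. Every animal carried the tamoxifen-activated Cre under the ubiquitous CAG promoter, and every animal was injected with 4-hydroxytamoxifen daily from postnatal day 42 to day 44. The tissue was taken at postnatal day 63, 19 days after the last injection, and each array held the pooled RNA of 4 retinas from 2 animals. Because Cre was not limited to rods, and because controls also carried a floxed allele and active Cre, the groups differ in the number of floxed copies in all cell types that recombined.

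Nrl, the transcription factor that keeps rods as rods, had log2 signals of 7.57 and 7.05 in knockout and 8.21 and 8.13 in control, so the targeted gene lay lower on both knockout arrays. Whether its probes lie inside the deleted stretch is unknown here, so this value checks the labels only in part. Rod genes marked the tissue as retina: the arrestin gene Sag averaged 11.33 in knockout and 11.65 in control. All 7 measured rod genes lay lower on both knockout arrays (Sag, Pde6a, Pde6b, Cnga1, Gnat1, Rom1 and Prph2), and 2 of them, Gnat1 and Rom1, were called lower. Over all genes both knockout arrays lay lower in 18.4%, and 12 genes (0.0618%) were called lower. Gnat1, rod transducin, fell by 3.01 (limma adjusted p = 0.00586) and Rom1, a disc rim protein, by 1.24 (limma adjusted p = 0.0209). The other differences were −0.82 for Pde6b, −0.61 for Prph2, −0.48 for Cnga1, −0.32 for Sag and −0.22 for Pde6a. Without 1 array the adjusted p ran from 0.0170 to 0.216 for Gnat1, where it passed only with both controls kept, and from 0.124 to 0.296 for Rom1, which also missed with the replicate block at 0.0627. With dimmer genes left out 4 rod genes were called, where 89 of all genes kept were. With a variance trend it was 5, where 128 of all genes were called. Of 3 erythrocyte genes 1 was measured, Alas2, at −0.12 and not called. The 2 replicate numbers also followed the sex of the pools, since the X-inactivation transcript Xist read 4.07 (knockout) and 4.09 (control) for replicate 1 but 10.66 (knockout) and 10.47 (control) for replicate 2. Differences are therefore given within each replicate number too. Replicates are pools of different animals, and p-values measure the spread between pools. In each genotype that spread also holds the difference in sex between its 2 pools, which the main fit did not separate.

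IFITM proteins sit in the plasma membrane and in endosomes, where they hinder the fusion of enveloped viruses with the cell. They share the CD225 domain. Type I and type II interferons act through JAK kinases and STAT factors on promoter elements called ISRE and GAS, and Ifitm1, Ifitm2 and Ifitm3 are classical targets. Ifitm5 differs in being a gene of bone-forming cells. Bst2 encodes tetherin, an unrelated interferon-induced protein that holds budding virions at the cell surface. In RefSeq (GRCm38.p6) Ifitm5, Ifitm2, Ifitm1, Ifitm3 and Ifitm6 follow each other in this order on chromosome 7 with no other protein-coding gene between them, Ifitm7 lies on chromosome 16 and Bst2 on chromosome 8.

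Ifitm3 and its relatives were first compared in the sequence around their start sites, because interferon acts on its classical targets through promoter elements. RefSeq windows from 250 bases before to 50 bases after the annotated start were found for all 7 genes and searched on both strands. The ISRE core was written as GAAANNGAAA and the GAS core as TTCNNNGAA. An ISRE core stood in the windows of 3 members, Ifitm3, Ifitm2 and Bst2, and in 3.44% of the 32851 windows of the table. A GAS core stood in those of 3 members, Ifitm3, Ifitm6 and Bst2, and in 8.30% of all windows. Stretches of 30 bases that hold these matches are printed below in capitals for the matched letters, on the minus strand in each case, 5′ to 3′:

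Ifitm3 (chr7:141010716-141010745): cagGAAAAGGAAAcTTCTGAGAAACCGAAA

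Ifitm2 (chr7:140955981-140956010): cagGAAAAGGAAAttgctagagaaagggcg

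Ifitm6 (chr7:141016883-141016912): ccatatgaacTTCCTTGAAacaagagcttc

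Bst2 (chr8:71537584-71537613): gggcaTTCCAGGAAAATGAAACTGAAAggc

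Ifitm3 held 2 ISRE cores, at bases 3 and 20 after its start, with a GAS core at base 14 that overlaps the second of them. Ifitm2 shared with Ifitm3 a run of 13 bases that holds 1 ISRE core, placed 46 bases before its start, and no second core and no GAS core followed it. The windows of Ifitm1, Ifitm5 and Ifitm7 held neither set of letters, which says only that these letters are not in these windows. Bst2 held 2 ISRE cores that overlap each other, the first also overlapping a GAS core. Among measured genes with a window, both knockout arrays lay above both controls in 19.5% of the 590 with an ISRE core and in 17.2% of the 14635 without one, and the median differences were 0.00 and −0.00 on the log2 scale.

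Ifitm3 restricts virus entry from endosomes. Its single probe set (10569017) had log2 signals of 9.90 and 9.52 in knockout replicates 1 and 2 and of 8.03 and 7.59 in control replicates 1 and 2. Both knockout pools were high and both controls low, and the groups were far apart. Pools averaged 9.71 ± 0.27 in the knockout and 7.81 ± 0.31 in the control (SD, n = 2 each). The log2 difference was 1.90 (SE 0.19), or 3.74-fold. The difference was 1.88 within replicate 1 and 1.93 within replicate 2. Replicate 1 exceeded replicate 2 by 0.38 in knockout and by 0.44 in control, so the pools of each genotype were spread alike and the gap between genotypes was nearly the same in both replicates. Of all 19421 genes, Ifitm3 had the 3rd largest rise.

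**Figure D1:**
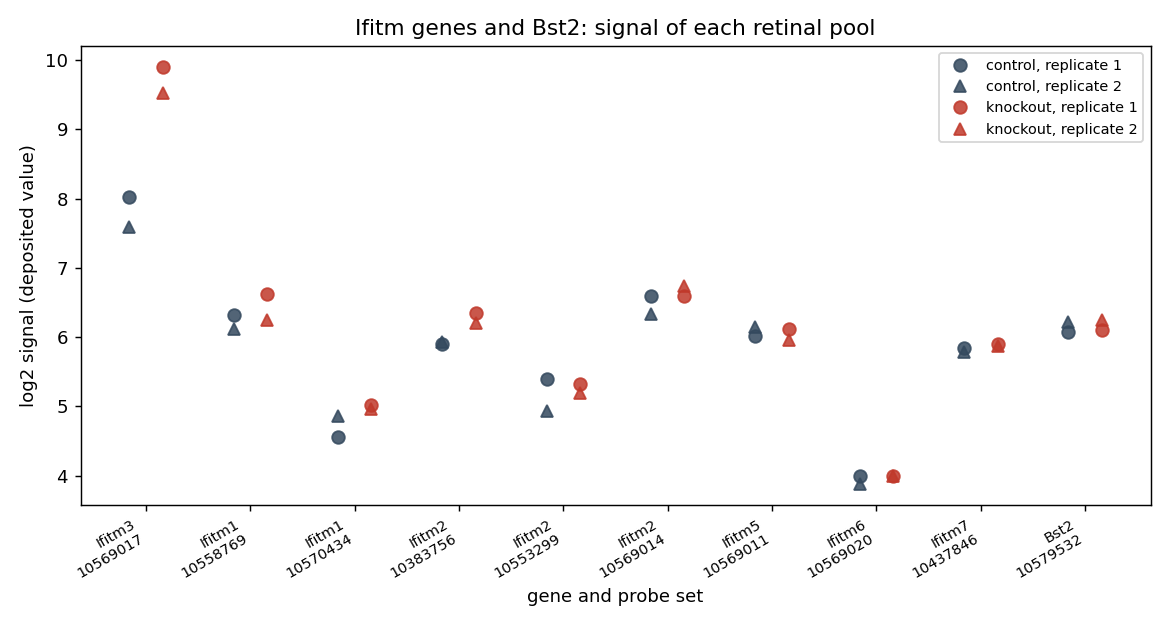
Log2 signal (vertical axis) of each of the 10 probe sets of the Ifitm genes and Bst2 (horizontal axis) in each pool, with circles for replicate 1, triangles for replicate 2, dark points for control and red points for knockout. Ifitm3 is the one probe set with a wide gap between genotypes, from 7.59 and 8.03 to 9.52 and 9.90, while heights of different probe sets are not comparable as transcript amounts.

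The paralogs did not share a rise of this size. Among Ifitm1, Ifitm2, Ifitm5, Ifitm6 and Ifitm7, 0 of 5 were called by limma at an adjusted p under 0.05, and 0 of 5 had an unadjusted p under 0.05. Over all genes 39, or 0.201%, were called in either direction, 27 of them (0.139%) higher, and 1374 (7.07%) had an unadjusted p under 0.05, so an absence of calls among 5 genes is near the background by itself. With knockout replicate 2 left out, Ifitm1 had an unadjusted p of 0.0409. At the probe set that stands for each gene, the highest upper 95% limit of the log2 difference among the 5 paralogs was 0.60. The 1.90 of Ifitm3 is a value chosen for its rise, so it is set beside this limit as a description only. Both knockout arrays exceeded both controls in 2 of the 5, Ifitm6 and Ifitm7, by 0.06 and 0.07 on average, and in 17.0% of all genes. Counted by probe set, it was 4 of the 8 of the paralogs. The share over all probe sets was not counted, so the 4 of 8 is not read as an excess. Differences lay above 0 in 4 of the 5 paralogs and in 7 of their 8 probe sets, and in 49.0% of all genes.

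Ifitm1, a cell-surface member, had log2 signals of 6.63 and 6.25 in knockout and of 6.32 and 6.12 in control at the probe set that stands for the gene (10558769). One knockout pool lay between the controls, so the groups overlapped. The knockout mean was 6.44 ± 0.27 (SD, n = 2) and the control mean 6.22 ± 0.14 (SD, n = 2). The difference was 0.22 (SE 0.16, 95% interval −0.16 to 0.60, limma adjusted p = 0.863), with 0.31 within replicate 1 and 0.13 within replicate 2. It ranged from 0.03 without knockout replicate 1 to 0.41 without knockout replicate 2. Its second probe set (10570434) read 5.03 and 4.96 in knockout and 4.55 and 4.86 in control, where both knockout pools were above both controls, and the difference was 0.28 (SE 0.13, limma adjusted p = 0.752 with every probe set fitted).

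Ifitm2, which like Ifitm3 acts on endosomal entry, lies next to Ifitm1 in the cluster. The probe set that stands for it (10569014) read 6.59 and 6.74 in knockout and 6.59 and 6.34 in control. In replicate 1 the genotypes were at the same level, and in replicate 2 the knockout was higher by 0.39. The difference was 0.20 (SE 0.13, 95% interval −0.11 to 0.50, limma adjusted p = 0.840). It ranged from 0.07 without control replicate 2 to 0.32 without control replicate 1. A second probe set (10383756) read 6.35 and 6.20 in knockout against 5.91 and 5.92 in control, so that both knockout pools were higher, by 0.36 on average (SE 0.10). This was the largest difference among the 8 paralog probe sets and the one with the lowest unadjusted p, 0.0136, which did not hold after adjustment over all probe sets (limma adjusted p = 0.541). The third (10553299) read 5.33 and 5.19 in knockout and 5.40 and 4.94 in control, a difference of 0.09 (SE 0.17) with overlapping groups.

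The platform's probe set numbers mostly follow the chromosomes, since 95.1% of the 20840 adjacent numbers carried genes of the same one. By that order, Ifitm2 probe set 10383756 fell between those of Smtn and Tug1 on chromosome 11. Ifitm2 probe set 10553299 fell between those of Gtf2h1 and Ldha on chromosome 7. Ifitm1 probe set 10570434 fell between those of Snora3 on chromosome 7 and Fbxo25 on chromosome 8. Those of Ifitm5, Ifitm2 (10569014), Ifitm3 and Ifitm6 followed one another as the genes do, and Ifitm1 probe set 10558769 fell between those of Pgghg and B4galnt4, the genes that flank the cluster. Which copy of the Ifitm sequence is read by the 3 probe sets numbered away from the cluster was not tested. How far probes of one Ifitm gene take up transcripts of another was not tested either.

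The remaining paralogs had differences near 0. Ifitm5, the member of bone-forming cells, read 6.11 and 5.96 in knockout and 6.02 and 6.15 in control, with a difference of −0.05 (SE 0.11, 95% interval −0.32 to 0.22, limma adjusted p = 0.978). Its sign differed between replicates, at 0.10 and −0.19. Ifitm6, at the far end of the cluster directly after Ifitm3, read 4.00 and 3.99 in knockout and 3.99 and 3.88 in control, a difference of 0.06 (SE 0.10, 95% interval −0.18 to 0.31, limma adjusted p = 0.963). Ifitm7, on another chromosome, read 5.91 and 5.87 in knockout and 5.85 and 5.78 in control, a difference of 0.07 (SE 0.10, 95% interval −0.16 to 0.31, limma adjusted p = 0.947). Ifitm6 and Ifitm7 were under the 50th percentile of mean signal, no detection values were used, and a signal near background there was not tested.

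**Figure D2:**
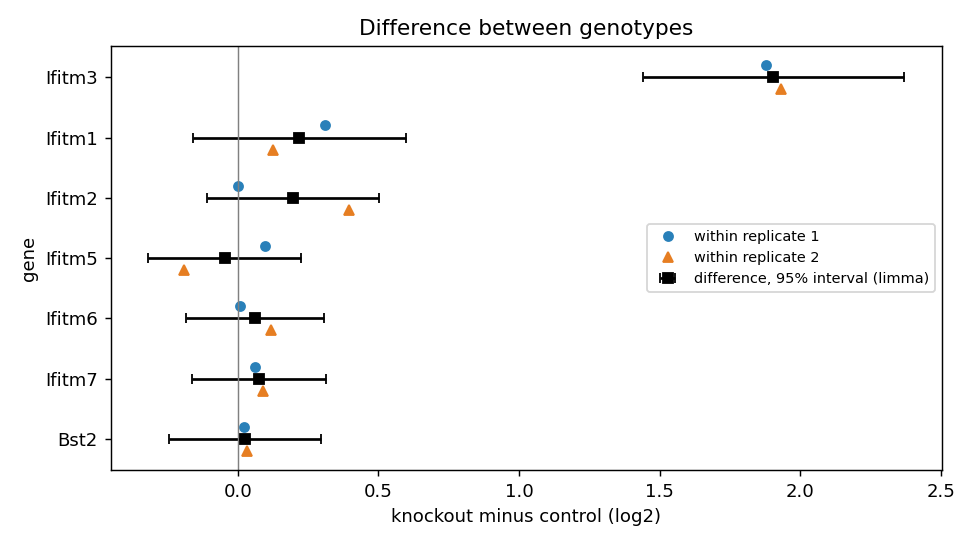
Knockout minus control on the log2 scale (horizontal axis) for each gene (vertical axis), with squares for the fitted difference, bars for its 95% interval from limma, blue circles for the difference within replicate 1 and orange triangles for that within replicate 2. Ifitm3 stands at 1.90. At the 1 probe set drawn for each gene, the intervals of the 5 paralogs and Bst2 all include 0 and end at or below 0.60. The further probe sets of Ifitm1 and Ifitm2 are not drawn.

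Set against each paralog on the same array, Ifitm3 gained in every comparison. Ifitm3 exceeded Ifitm1 (10558769) by 3.27 in both knockout pools and by 1.71 and 1.47 in the control pools, so the distance between them widened by 1.69, or 3.22-fold. Against Ifitm2 (10569014) the distance was 3.31 and 2.78 in knockout and 1.43 and 1.25 in control, a widening of 1.71. Over all 8 paralog probe sets the widening ran from 1.54, at Ifitm2 probe set 10383756, to 1.95, at Ifitm5. These distances differ in level between probe sets because probes differ, and only their change between genotypes is read. As they rest on the contrast that Ifitm3 was chosen from, they are given with no test, and an exact permutation test of 2 arrays against 2 could not go below p = 0.333.

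Bst2 showed no such gap. It read 6.10 and 6.24 in knockout and 6.08 and 6.21 in control, with replicate 2 above replicate 1 in both genotypes and the genotypes interleaved. The means were 6.17 ± 0.10 and 6.14 ± 0.10 (SD, n = 2 each), a difference of 0.03 (SE 0.11, 95% interval −0.24 to 0.30). Within the replicates the difference was 0.02 and 0.03. Its window holds 2 ISRE cores, as does that of Ifitm3.

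Genes beside the Ifitm cluster were read next. The 5 nearest measured protein-coding genes before the cluster were Sirt3, Psmd13, Cox8b, Nlrp6 and Pgghg, and the 5 after it were B4galnt4, Pkp3, Sigirr, Ano9 and Ptdss2. Limma called 0 of these 10 (0 at an unadjusted p under 0.05), and their differences ran from −0.14 for Nlrp6, an inflammasome sensor, to 0.17 for Pgghg, with a median of 0.05 against −0.00 over all genes. Sirt3, the mitochondrial deacetylase, had 0.09, Psmd13, a proteasome subunit, 0.12, and Cox8b, a subunit of cytochrome oxidase, 0.13. On the other side B4galnt4 had −0.06, Pkp3, a plakophilin, 0.01, Sigirr, a brake on interleukin-1 receptor signalling, −0.00, Ano9 0.00, and Ptdss2, which makes phosphatidylserine, 0.09. Ptdss2 was higher on both knockout arrays and Nlrp6 lower on both, and the other 8 overlapped, where 17.0% of all genes were higher on both and 18.4% lower on both.

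**Figure D3:**
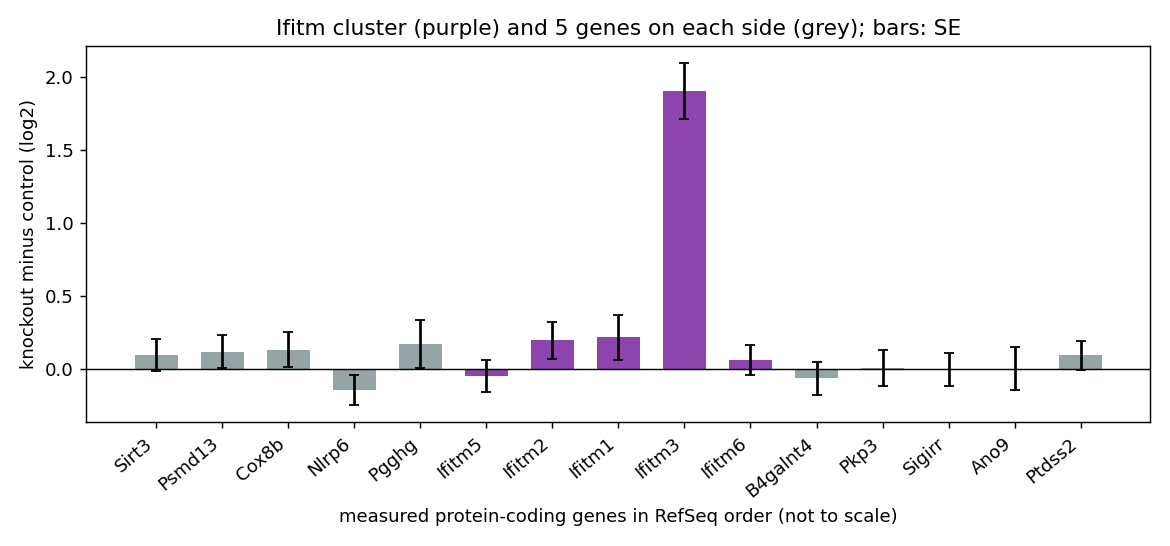
Knockout minus control on the log2 scale (vertical axis, with SE bars) for the 5 Ifitm genes of the chromosome 7 cluster, in purple, and the 5 measured protein-coding genes on each side, in grey, in RefSeq order along the horizontal axis (not to scale). The bar of Ifitm3 reaches 1.90, and all other bars lie between −0.14 and 0.22.

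Other members of the CD225 family gave no call. Of 8 listed, 6 were measured and limma called 0 (0 at an unadjusted p under 0.05), with a median difference of 0.03. Ifitm10 had 0.11, Tmem91 0.09, Syndig1l 0.06, Syndig1, a synapse protein, 0.01, Prrt1 −0.01 and Trarg1, a protein of fat and muscle glucose transport, −0.17. Only Trarg1 was lower on both knockout arrays, and 0 of these genes were higher on both. The genes of proteins known to modify or bind IFITM3 were followed too. These are Zdhhc20, which adds palmitate, Nedd4, which adds ubiquitin, Setd7, which methylates it, Fyn, which phosphorylates it, and its partners Vapa, Vcp and Zmpste24. Limma called 0 of 7 (0 at an unadjusted p under 0.05), with differences from −0.06 for Zmpste24 to 0.10 for Vapa and overlapping groups in all 7. Zdhhc20 had −0.03, Nedd4 0.03, Setd7 0.03, Fyn −0.05 and Vcp −0.02.

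Genes upstream in the interferon pathway showed no called change. Of 15 measured ligand genes limma called 0, with a median of −0.05, 6 above 0 and 9 below. Ifna4, an interferon alpha, had −0.41 (SE 0.12, limma adjusted p = 0.526), and Ifnl2, an interferon lambda, had 0.32 (SE 0.11, limma adjusted p = 0.603). Among 5 measured receptor genes 0 were called. Ifnar2, a chain of the type I receptor, read 6.61 and 6.76 in knockout and 6.19 and 6.23 in control, higher on both knockout arrays by 0.48 (SE 0.11, limma adjusted p = 0.325). Ifnlr1 had 0.30, Il10rb 0.19, Ifngr2 0.04 and Ifngr1 −0.02. Of 15 signalling genes 0 were called, with a median of −0.03. The 2 with the smallest p were the feedback inhibitors Socs3, at 0.44 (SE 0.10, limma adjusted p = 0.358), and Socs1, at 0.24 (SE 0.10, limma adjusted p = 0.700). At an unadjusted p under 0.05 there were 2 ligand, 1 receptor and 2 signalling genes, against 7.07% of all genes. Over all genes 0.201% were called, so an absence of calls in lists this short is near the background by itself.

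Interferon-induced genes other than the members leaned upward without a call. Of 52 listed, 43 were measured, and limma called 0 of them. Their median difference was 0.21, against −0.00 over all genes, 38 lay above 0 and 5 below, and 25 were higher on both knockout arrays, where 17.0% of all genes were. The 2 with the smallest p were Rtp4, a receptor chaperone induced by interferon, and B2m, which encodes β2-microglobulin. Rtp4 read 6.16 and 5.83 in knockout and 5.06 and 4.96 in control, a difference of 0.99 (SE 0.14, limma adjusted p = 0.105). B2m read 10.51 and 9.96 in knockout and 8.97 and 8.55 in control, a difference of 1.48 (SE 0.22, limma adjusted p = 0.122). In both genes the knockout pools stood above the controls. Ifit3, chosen after its values were seen, had 1.20 (SE 0.25, limma adjusted p = 0.295), while Oas2, also chosen so, went the other way at −0.35 (SE 0.14, limma adjusted p = 0.666). At an unadjusted p under 0.05 there were 16 of the 43, against 7.07% of all genes. With dimmer genes left out 1 of the list was called, where 89 of all genes kept were. With a variance trend it was 3, where 128 of all genes were called. The largest difference in this list was the 1.48 of B2m. Ifitm3 had 1.90 but was chosen for its rise, so the 2 values are not weighed against each other.

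Among 11 measured genes of other viral restriction factors limma called 0, with a median of 0.12 and 6 above 0. Trim30a, an interferon-induced ubiquitin ligase, had 0.65 (SE 0.12, limma adjusted p = 0.240), and Ch25h, which makes 25-hydroxycholesterol, 0.51 (SE 0.15, limma adjusted p = 0.562). These were the only 2 at an unadjusted p under 0.05, where 7.07% of all genes were.

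The IL-6 cytokine family, which signals through the shared receptor Il6st to Stat3, had called members. Of 13 listed genes 10 were measured, and 2 were higher and 0 lower, with a median of 0.27 and 6 at an unadjusted p under 0.05. Over all genes 0.139% were called higher and 7.07% had such a p. The 6 in this list did not all rise. Cntfr, named after its values were seen, was lower on both knockout arrays, at −0.34 (limma adjusted p = 0.561). Outside the 6, Il6 at −0.20 and Osm at −0.18 also had negative differences, against positive ones for 7 genes of the list. Osmr, the oncostatin M receptor, read 6.98 and 7.14 in knockout and 5.66 and 5.86 in control and rose by 1.30 (SE 0.12, limma adjusted p = 0.0294). Stat3 read 7.54 and 7.59 in knockout and 6.50 and 6.48 in control and rose by 1.08 (SE 0.10, limma adjusted p = 0.0271). In both the knockout pools stood clear of the controls. Leaving out any 1 array ended both calls (limma adjusted p from 0.135 to 0.330 for Osmr and from 0.145 to 0.312 for Stat3), and so did the replicate block (0.0623 and 0.0730).

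**Figure D4:**
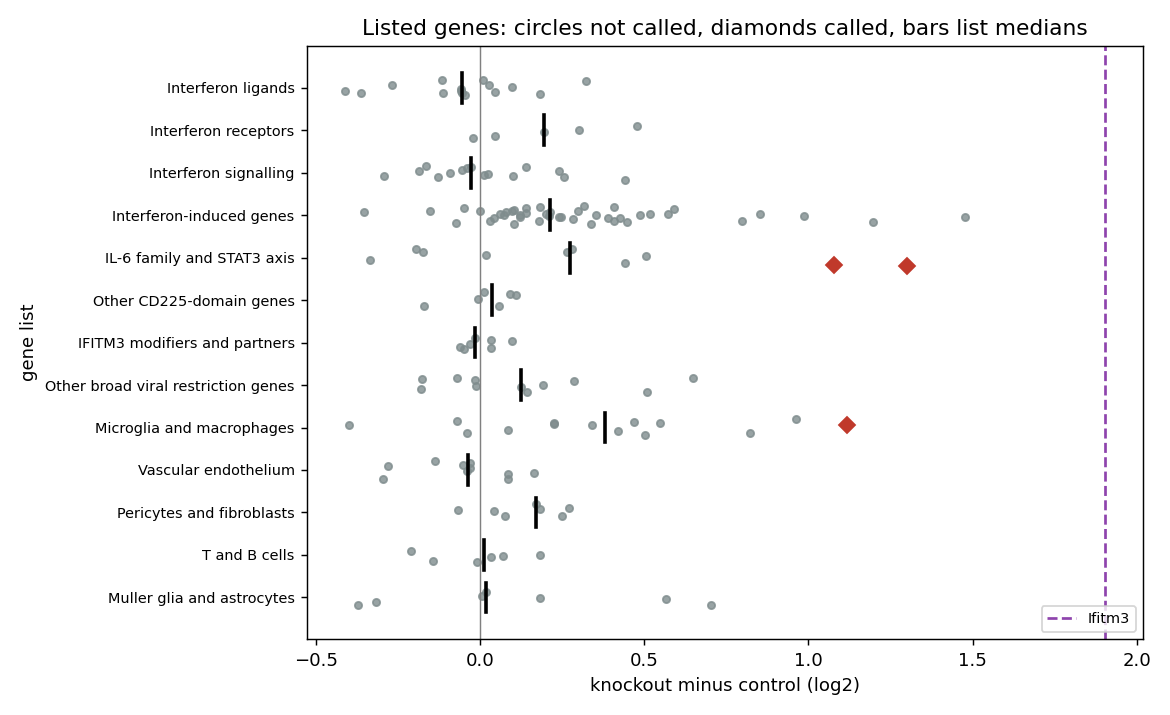
Knockout minus control on the log2 scale (horizontal axis) for the genes of each list (vertical axis, without the rod and erythrocyte lists), with grey circles for genes not called, red diamonds for called genes, black bars for list medians and a dashed line at the 1.90 of Ifitm3. Called genes of the lists drawn are Osmr, Stat3 and Tyrobp, and the medians of these lists run from −0.05 for interferon ligands to 0.38 for microglia and macrophages.

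Ifitm3 is not restricted to one cell type, so marker genes are given beside it. In whole tissue, more cells of a type and more RNA per cell cannot be told apart. Of 14 measured microglia and macrophage markers 1 was called higher, Tyrobp, a myeloid adaptor, by 1.12 (SE 0.11, limma adjusted p = 0.0347), where 0.139% of all genes were called higher. At an unadjusted p under 0.05 there were 9 of the 14, against 7.07% of all genes. That call was lost without any 1 array (adjusted p from 0.135 to 0.416) and with the replicate block (0.0730), while 2 markers were called with quantile normalization and 2 with a variance trend. Of all genes, 46 were called with quantile normalization and 128 with a variance trend. In this list 11 markers lay above 0 and 3 below, and the median was 0.38. The mean log2 signal of the list was 5.89 and 5.92 in knockout and 5.49 and 5.58 in control. Aif1 had 0.96, Cx3cr1 0.50 and Ptprc, which encodes CD45, 0.08. The 3 below 0, named after their values were seen, were the microglial membrane protein gene Tmem119 at −0.40 (limma adjusted p = 0.403), Trem2 at −0.07 and Itgam at −0.04. Of the 14 markers, 9 were higher on both knockout arrays and 2, Tmem119 and Itgam, were lower on both. Over all genes 17.0% were higher on both and 18.4% lower on both. The part of these cells in the rise of Ifitm3 was not tested.

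Endothelial markers, 10 of 10 measured, gave no call. Limma called 0, the median was −0.04, 3 lay above 0 and 7 below, and the mean log2 signal was 5.69 and 5.74 in knockout and 5.71 and 5.82 in control. Pecam1 had −0.30, Emcn −0.28 and Cldn5, a tight junction protein, 0.08, and only Emcn had an unadjusted p under 0.05. Pecam1 and Emcn were lower on both knockout arrays, and 1 endothelial marker was higher on both. Pericyte and fibroblast markers, 7 of 7 measured, had 0 calls (0 at an unadjusted p under 0.05), a median of 0.17 and mean signals of 5.77 and 5.71 against 5.58 and 5.64. They ran from −0.07 for Col1a2 to 0.27 for Rgs5, with Lum at 0.25, Dcn 0.18, Kcnj8 0.17, Col1a1 0.08 and Pdgfrb 0.04. T and B cell markers, 6 of 7 measured, had 0 calls (0 at an unadjusted p under 0.05), a median of 0.01 and mean signals of 4.83 and 4.87 against 4.79 and 4.93. They ran from −0.21 for Cd3g to 0.18 for Cd79a, with Cd79b at 0.07, Cd4 0.03, Cd8a −0.01 and Cd3e −0.14. Higher on both knockout arrays were 3 pericyte and fibroblast markers and 0 of T and B cells, and 0 of either list were lower on both. Over all genes 17.0% were higher and 18.4% lower on both, 0.201% were called and 7.07% had an unadjusted p under 0.05. An absence of calls in lists this short is near the background by itself.

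Glial markers were mixed. Limma called 0 of 7, with 3 at an unadjusted p under 0.05, against 7.07% of all genes. With a variance trend 1 was called, where 128 of all genes were. The median was 0.02, and the mean log2 signal was 7.42 and 7.38 in knockout and 7.27 and 7.31 in control. Gfap, the filament of reactive glia, had 0.70, the filament gene Vim 0.56 and Sox9 0.18, and these 3 were higher on both knockout arrays. Slc1a3, the glutamate transporter, had 0.02 and the water channel Aqp4 0.01. Glul, glutamine synthetase, had −0.37 and the retinaldehyde-binding Rlbp1 −0.32. Glul was lower on both knockout arrays and, with Gfap and Vim, was among the 3 at an unadjusted p under 0.05. Over all genes 17.0% were higher on both knockout arrays and 18.4% lower on both. The part of glia in the rise of Ifitm3 was not tested.

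Across the 4 arrays, the genes whose centred log2 profile lay closest to that of Ifitm3 did not include its paralogs. By root mean square difference these were Ccdc175 (0.16), Gnb3, the β subunit of cone transducin (0.17), Clca1 (0.18), Fgf2, a growth factor (0.19), and Ctss, the lysosomal protease cathepsin S (0.20). Their differences between genotypes were 1.93, 1.59, 2.11, 1.64 and 1.53. All of these genes were picked for likeness of profile, and all, like Ifitm3, read higher in replicate 1 than in replicate 2 of each genotype. Fgf2, for example, read 8.39 and 7.71 in knockout and 6.52 and 6.31 in control. Among the paralogs the closest was Ifitm1, at a root mean square difference of 0.85 and rank 894, followed by Ifitm2 at 0.88 and rank 1516. For Bst2 the closest profiles were those of Nrros, Trerf1, Tgfbr3, Rprml and Olfr138, each within 0.01 of it and each as flat between genotypes, with differences from 0.02 to 0.04. With 4 arrays such likeness is a description only.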

How the data were processed

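Log2 signals of 21897 probe sets on 4 arrays were used as the authors deposited them. Tools named in the submitters' processing notes are affy and limma. How background was corrected, how arrays were normalized and which build was used is unstated. The log2 scale was taken from the range of the values (1.34 to 12.75), and array medians lay between 5.99 and 6.04. Their number limits the precision.

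Gene names came from the annotation of the platform (20877 with 1 symbol, 175 with several, 845 with none). The probe set with the highest mean stood for a gene, which left 19421 genes. The knockout was set against the control by lmFit and eBayes (limma 3.58.1, R 4.3.3, two-sided, Benjamini-Hochberg over all genes, called at an adjusted p under 0.05), with steps checked on simulated data. Each member probe set was also fitted among all probe sets. Members and lists (191 genes, 163 measured) were chosen with earlier results of these data known. Named were all members, neighbours and list genes in lists of at most 8, otherwise up to 4 called genes or the 2 smallest p, the defining markers Ptprc, Cx3cr1, Aif1, Pecam1, Cldn5 and Gfap, and the 5 closest profiles. RefSeq sequences came from GRCm38.p6.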

Additional observations from a re-analysis of the deposited data

How the results depend on the processing

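The difference of Ifitm3 stayed between 1.69 and 2.12 over 10 alternatives, and 0 paralogs were called in any (lowest adjusted p 0.541). Ifitm5, not called, ran from −0.12 to 0.029 when 1 array was left out. The adjusted p of Ifitm3 was 0.0429 with the replicate block, 0.0515 with every probe set fitted, and 0.0932 to 0.358 without 1 array. Of all genes, 39 were called, 8 with the replicate block, 89 with dimmer genes (mean below the 50th percentile) left out, 128 with a variance trend and 0 to 11 without 1 array. The 0 stood without either control replicate, with 1355 and 1328 genes at an unadjusted p under 0.05. The cause was not tested. Same-numbered arrays deviated together (r = 0.24 across genes, which are not independent), but the labels give no pairing. Xist was also low in both replicate 1 pools and high in both replicate 2 pools.

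With 2 pools a group, a change of a paralog within its interval cannot be seen. Probe sequences were not used, so signal shared between paralogs was not measured. Ifitm6 and Ifitm7 gave no value once dimmer genes were left out.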
